A study of Mus musculus with 64 samples.

Results

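The NF-kappaB genes described here are Nfkbia, Nfkbib, Nfkbie, Nfkbiz, Nfkb1, Nfkb2, Rel, Rela, Relb and Tnfaip3, 10 of the 46785 genes listed in each library. Every row carrying one of these gene names was taken, which gave 39 of 112714 transcripts, and the FPKM values (fragments scaled to transcript length and to the mapped fragments of the library) of a gene's transcripts were summed in each library. All 10 genes and 30 of the 39 transcripts passed the filter on low values, a mean of at least 0.1 FPKM in the nucleus accumbens (NAc) or the prefrontal cortex (PFCx).

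The libraries were made from ribo-depleted total RNA of the NAc and PFCx of adult male C57BL/6N mice (8 to 10 weeks old), 2 h after a single intraperitoneal injection. The drugs were the antipsychotics haloperidol (1 mg/kg) and risperidone (0.5 mg/kg), the psychostimulant methamphetamine (2 mg/kg), the antidepressants venlafaxine (16 mg/kg) and mianserin (20 mg/kg) and the psychotomimetic ketamine (20 mg/kg). Each drug had 4 libraries per tissue and saline had 8, labelled as sets I and II of 4, so 64 libraries were compared in all. Haloperidol and risperidone were dissolved in saline with a drop of hydrochloric acid, the other drugs in saline alone, and each drug was given at 1 dose and 1 time. The labels do not say that replicates were separate mice or which NAc and PFCx libraries came from the same mouse, so p-values measure the spread between these libraries only.

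In the NAc, libraries of saline I, haloperidol, risperidone and methamphetamine (set I) had 85287 to 87827 transcripts above 0, and those of saline II, mianserin, venlafaxine and ketamine (set II) had 107099 to 110556. In the PFCx both sets had 108556 to 110852. Each drug was therefore compared with all 8 saline libraries (pooled saline) and also with the 4 of its own set (own saline). The aligned depth was 1.52 to 3.26 gigabases per library (median 2.39). Summed FPKM of the striatal neuron markers averaged 514 in NAc and 24.9 in PFCx saline libraries, and that of the cortical projection neuron markers 45.5 and 174, as the tissue labels state.

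NF-kappaB is a family of dimeric transcription factors built from subunits encoded by Rela, Relb, Rel, Nfkb1 and Nfkb2. In resting cells the dimers are held in the cytoplasm by IkappaB proteins, which IkappaB kinase marks for degradation after a stimulus. Nfkbia encodes IkappaB-alpha, an IkappaB that NF-kappaB itself induces and that returns the dimers to the cytoplasm, and glucocorticoids are also known to induce it. Tnfaip3 encodes the ubiquitin-editing enzyme A20, another inducible brake on the pathway. In the brain the pathway is best known from microglia and endothelium during inflammation, and it is also active in neurons.

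The 250 bases before the start of Nfkbia and of Nfkbie, both IkappaB genes, are shown because each window held 1 match to the kappaB consensus (searched on both strands), and Nfkbia alone was called after any drug. The matches are in capitals, and both windows are written 5′ to 3′ on the strand of the gene (RefSeq, GRCm38.p6).
Nfkbia, chr12:55492648-55492897, minus strand: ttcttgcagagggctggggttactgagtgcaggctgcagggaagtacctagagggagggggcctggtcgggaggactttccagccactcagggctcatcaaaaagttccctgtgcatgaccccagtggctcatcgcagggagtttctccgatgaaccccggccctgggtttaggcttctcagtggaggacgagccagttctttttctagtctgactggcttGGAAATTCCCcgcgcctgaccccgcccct
Nfkbie, chr17:45555450-45555699, plus strand: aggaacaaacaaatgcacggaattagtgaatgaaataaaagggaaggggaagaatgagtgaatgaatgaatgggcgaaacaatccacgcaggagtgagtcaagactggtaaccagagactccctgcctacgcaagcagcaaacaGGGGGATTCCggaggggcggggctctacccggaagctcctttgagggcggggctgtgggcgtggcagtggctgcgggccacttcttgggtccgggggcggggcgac
The match before Nfkbia lay 29 to 20 bases before the start and read as the consensus on the opposite strand, and the match before Nfkbie lay 106 to 97 bases before the start. Of 32851 promoters of this length, 7.25% held the consensus. Neither window held AGAACA, the glucocorticoid receptor half-site (16.1% of promoters), the full palindromic element of that receptor (3 promoters) or the CREB element TGACGTCA (1.55%), letters that say nothing beyond these windows. The table held promoters of 7 of the 10 genes: Rel, Tnfaip3 and Nfkb2 also had matches to the consensus, overlapping ones counted, and Rela and Nfkbib had none.

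In saline libraries, the FPKM of the members, a level per transcript length summed over coding and noncoding transcripts, spanned about an order of magnitude. In the NAc, Nfkb1 (3.12 ± 0.512, SD, n = 8), Rela (2.34 ± 0.227), Nfkbia (2.32 ± 0.427) and Nfkbib (2.25 ± 0.612) were highest, and Tnfaip3 (1.03 ± 0.322), Nfkbiz (0.843 ± 0.129), Relb (0.572 ± 0.108), Rel (0.415 ± 0.0716), Nfkbie (0.329 ± 0.175) and Nfkb2 (0.298 ± 0.0972) followed. Of neighbours in this order, only Nfkbib and Tnfaip3 had ranges that did not overlap. In the PFCx the order ran from Nfkb1 (2.95 ± 0.227) over Nfkbia (2.26 ± 0.513), Nfkbib (2.24 ± 0.274), Rela (1.70 ± 0.337), Tnfaip3 (1.59 ± 0.268), Relb (0.933 ± 0.283), Nfkbiz (0.891 ± 0.162), Nfkbie (0.684 ± 0.509) and Rel (0.513 ± 0.0743) to Nfkb2 (0.304 ± 0.0804), and the ranges of all neighbours overlapped.

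Nfkbia (ENSMUSG00000021025, chromosome 12, 55489411 to 55492647 in mm10, minus strand) was the member that the drugs changed in both tissues. It rose after risperidone, mianserin and haloperidol, with the mean FPKM 2.32, 2.10 and 1.60 times that of pooled saline in the NAc and 2.40, 2.26 and 1.74 times in the PFCx. Against own saline the same means were 2.12, 2.32 and 1.47 times in the NAc and 2.23, 2.44 and 1.62 times in the PFCx. The order of risperidone and mianserin thus changed with the control. In the moderated F test of limma over the 6 drugs the adjusted p of Nfkbia was 4.28e-07 (NAc) and 1.65e-05 (PFCx). By that test 36.9% of all 37034 genes tested in the NAc and 3.34% in the PFCx were called (adjusted p under 0.05), and Nfkbia stood 22nd and 28th by p. With each drug set against its own saline, which left 1.63% and 1.45% of genes called, its adjusted p was 2.75e-07 and 3.06e-05.

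NAc levels of Nfkbia in the 4 saline I libraries were 2.42, 2.07, 2.41 and 3.27 FPKM, and in the 4 saline II libraries 1.93, 2.29, 1.94 and 2.26. After risperidone they were 4.85, 5.40, 6.41 and 4.86 FPKM, after mianserin 4.30, 4.62, 4.91 and 5.70, and after haloperidol 3.38, 3.86, 4.15 and 3.52. All 12 of these libraries lay above the highest of the 8 saline libraries. Ketamine gave 3.36, 3.02, 2.60 and 2.98 FPKM, all above the saline II libraries, and 1 of them above saline I replicate 4. The methamphetamine libraries (2.55, 2.60, 2.44 and 2.69 FPKM) and the venlafaxine libraries (1.97, 3.12, 1.74 and 2.77 FPKM) lay within or beside the saline range. Of neighbours in the order of means, risperidone and mianserin overlapped, as did ketamine, methamphetamine, venlafaxine and saline in turn, whereas mianserin and haloperidol, and haloperidol and ketamine, did not. Haloperidol belongs to set I and mianserin and ketamine to set II, so drug and set cannot be told apart in these gaps. The NAc saline means were 2.54 FPKM in set I and 2.11 in set II.

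On the log2(FPKM + 1) scale, which understates the change of low genes, Nfkbia was higher in the NAc by 0.94 after risperidone (95% interval 0.74 to 1.14, limma adjusted p = 2.02e-06), 0.83 after mianserin (0.63 to 1.03, adjusted p = 1.25e-05) and 0.51 after haloperidol (0.32 to 0.71, adjusted p = 0.00599). In these contrasts 0.729%, 1.84% and 0.721% of all genes were called. The difference was 0.27 after ketamine (0.07 to 0.47, adjusted p = 0.119), 0.11 after methamphetamine (-0.09 to 0.31, adjusted p = 0.562) and 0.02 after venlafaxine (-0.18 to 0.22, adjusted p = 0.916), contrasts in which 1.97%, 0.194% and 1.83% of genes were called. An exact permutation test (two-sided, every split into 4 and 8 libraries) gave p = 0.00202, the smallest it can give, for risperidone, mianserin and haloperidol (0.0485 after Benjamini-Hochberg adjustment over the 120 pairs of member and drug). The same exact test gave p = 0.0263 for ketamine, p = 0.244 for methamphetamine and p = 0.857 for venlafaxine.

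Against own saline in the NAc, the limma difference was 0.85 after risperidone (adjusted p = 1.67e-04, 0.213% of all genes called), 0.92 after mianserin (adjusted p = 3.46e-05, 0.273% called) and 0.42 after haloperidol (adjusted p = 0.145, 0.235% called). The call for haloperidol thus rested on the pooled saline libraries, although its 4 libraries lay above all 4 of saline I. Ketamine was at 0.36 (adjusted p = 0.138, 0.967% called), methamphetamine at 0.02 (0.0891% called) and venlafaxine at 0.11 (0.0081% called). With 4 libraries against 4 the exact permutation test cannot go below p = 0.0286, the value it gave for risperidone, mianserin, haloperidol and ketamine.

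PFCx levels of Nfkbia were 2.36, 2.09, 2.08 and 3.18 FPKM in saline I and 2.57, 2.48, 1.47 and 1.86 in saline II. After risperidone they were 3.97, 6.60, 5.36 and 5.74 FPKM and after mianserin 5.60, 4.00, 5.43 and 5.39, all above every saline library. After haloperidol they were 4.22, 4.54, 4.02 and 2.98 FPKM, the last below saline I replicate 4. Ketamine (3.90, 3.66, 3.12 and 2.78 FPKM) again stood above the 4 saline II libraries. Methamphetamine (3.62, 3.40, 2.94 and 3.08 FPKM) overlapped only saline I replicate 4, and venlafaxine (2.51, 2.36, 2.33 and 2.87 FPKM) lay within the saline range. Of neighbours in the order of means, only methamphetamine (set I) and venlafaxine (set II) had ranges that did not overlap, a gap that also crosses the sets.

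The PFCx difference of Nfkbia on the log2(FPKM + 1) scale was 0.98 after risperidone (limma adjusted p = 2.31e-05, 0.51% of all genes called), 0.91 after mianserin (adjusted p = 2.47e-05, 0.667% called) and 0.60 after haloperidol (95% interval 0.37 to 0.84, adjusted p = 0.0281, 0.162% called). It was 0.43 after ketamine (0.19 to 0.67, adjusted p = 0.310, 0.0162% called), 0.40 after methamphetamine (0.16 to 0.64, adjusted p = 0.194, 0.351% called) and 0.12 after venlafaxine (adjusted p = 0.882, 0.0054% called). The exact permutation p was 0.00202 for risperidone and mianserin, 0.00404 for haloperidol, 0.00808 for ketamine, 0.0121 for methamphetamine and 0.335 for venlafaxine. Against own saline the differences were 0.90 for risperidone (adjusted p = 0.0011, 0.162% called), 0.99 for mianserin (adjusted p = 9.47e-05, 2.01% called), 0.53 for haloperidol (adjusted p = 0.310, 0.0216% called), 0.50 for ketamine (adjusted p = 0.051, 1.51% called), 0.32 for methamphetamine (0.159% called) and 0.20 for venlafaxine (0.74% called). The PFCx call for haloperidol was lost without haloperidol replicate 1 (0.57, adjusted p = 0.140), 2 (0.55, adjusted p = 0.129) or 3 (0.59, adjusted p = 0.0683), or without saline II replicate 4 (0.58, adjusted p = 0.0610).

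**Figure D1:**
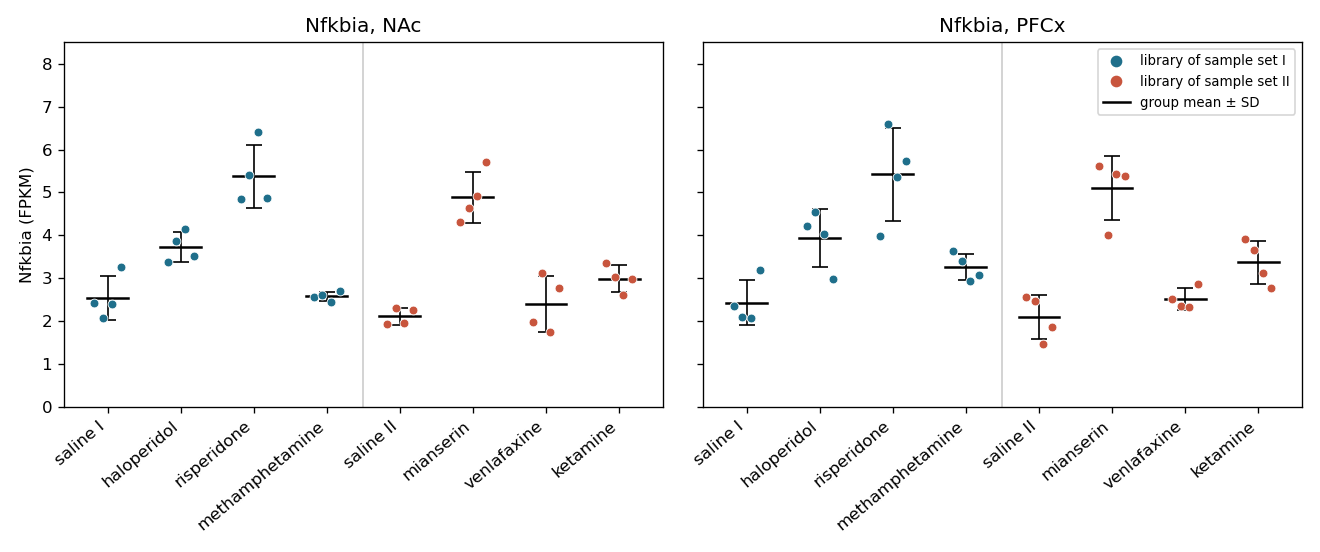
Nfkbia FPKM in each of the 64 libraries (points, coloured by sample set), by treatment and tissue, with the group mean and SD as lines. All risperidone and mianserin libraries lie above all 8 saline libraries of their tissue, with NAc means of 5.38 and 4.88 FPKM and PFCx means of 5.42 and 5.11.

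The response of Nfkbia to the drugs did not differ detectably between the tissues. The F test over the 6 differences of differences gave a limma adjusted p of 0.82 (12.9% of all genes called), or 0.976 against own saline (0.759% called). The NAc minus PFCx differences ran from -0.29 for methamphetamine to -0.03 for risperidone, each with a standard error of 0.153.

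Drugs were also compared with each other within their sample set, which makes 12 pairs over both tissues, at the single dose of each drug. In set I of the NAc, risperidone exceeded methamphetamine by 0.83 (95% interval 0.61 to 1.05, limma adjusted p over all genes 2.76e-04), and haloperidol differed by -0.43 from risperidone (-0.65 to -0.21) and by 0.40 from methamphetamine (0.18 to 0.62), with adjusted p of 0.221 and 0.292. No haloperidol library overlapped the risperidone or the methamphetamine libraries. In set II of the NAc, mianserin exceeded venlafaxine by 0.80 (0.58 to 1.03, adjusted p = 2.04e-04) and ketamine by 0.56 (0.34 to 0.78, adjusted p = 0.00356). In the PFCx, mianserin exceeded venlafaxine by 0.79 (0.52 to 1.06, adjusted p = 0.00341). The other 5 PFCx pairs and venlafaxine against ketamine in the NAc did not pass the test over all genes, with differences of 0.21 to 0.58 in size. The exact permutation test over 70 splits gave p = 0.0286 (0.0429 after adjustment over the 12 pairs) for the 5 NAc pairs other than venlafaxine against ketamine, and for risperidone against methamphetamine and mianserin against venlafaxine and ketamine in the PFCx.

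None of the other 9 members was called in any contrast of a single drug with pooled or own saline, in either tissue. Rel alone was called by the F test over the drugs, in the NAc and against pooled saline only. On the log2(FPKM + 1) scale their 54 differences per tissue ran from -0.24 to 0.23 in the NAc and from -0.32 to 0.36 in the PFCx, and the lowest limma adjusted p was 0.065 for Rel after mianserin in the NAc and 0.145 for Rela after haloperidol in the PFCx. The exact permutation p was under 0.05 against pooled saline for 6 of 54 pairs (11.1%) in each tissue, beside 11% of all gene and drug pairs in the NAc and 7.52% in the PFCx. No pair lay fully above or below all 8 saline libraries, as 1.39% and 1.05% of all pairs did. Fully above or below own saline lay 1 pair (1.85%) in the NAc and 4 (7.41%) in the PFCx, beside 3.6% and 5.22% of all pairs.

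**Figure D2:**
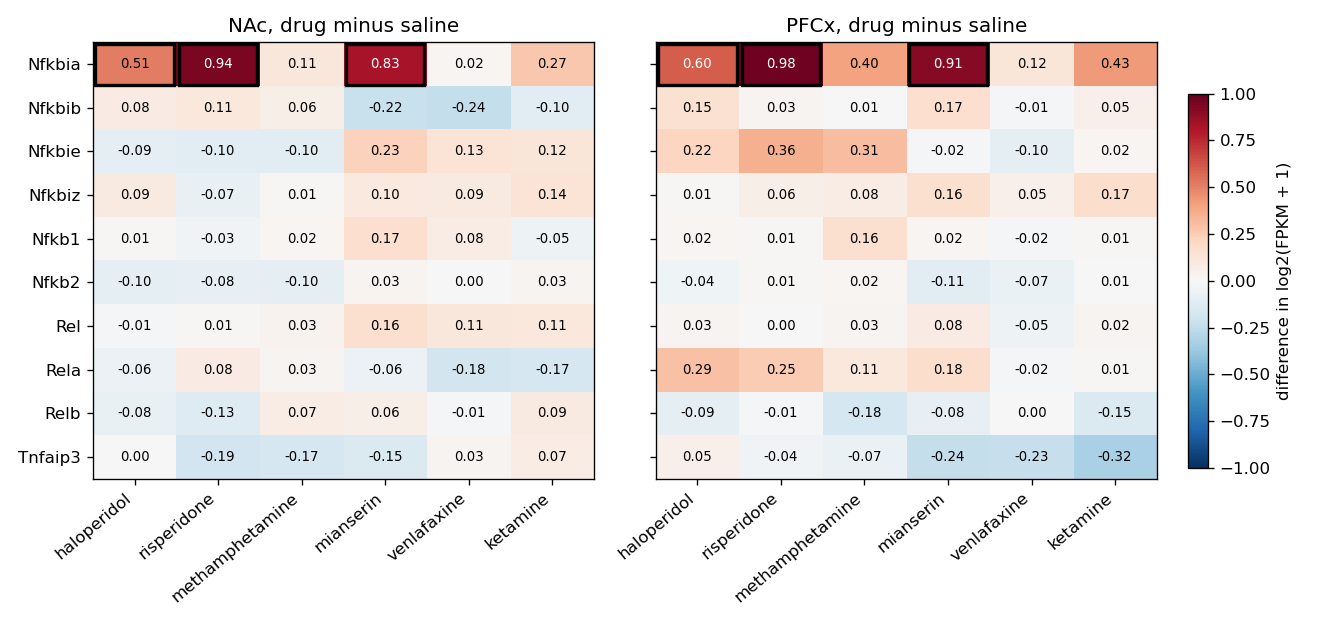
Difference between drug and pooled saline on the log2(FPKM + 1) scale for each member (rows) and drug (columns), NAc left and PFCx right, with black frames around limma adjusted p under 0.05. The frames are at Nfkbia after haloperidol, risperidone and mianserin in both tissues, from 0.51 to 0.98.

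Among the other IkappaB genes, Nfkbib (IkappaB-beta, chromosome 7, 28758251 to 28767512) was between 1.35 and 3.29 FPKM in all libraries. Its NAc level differed between the saline sets, with 2.75, 2.29, 3.29 and 2.70 FPKM in saline I against 1.58, 1.97, 1.67 and 1.76 in saline II, ranges that did not overlap. The mianserin (1.58, 1.58, 1.94 and 1.91 FPKM) and venlafaxine libraries (1.50, 1.61, 1.76 and 2.04 FPKM) of set II lay close to saline II. Its differences of -0.22 and -0.24 for these drugs were against pooled saline, and neither was called.

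Nfkbie (IkappaB-epsilon, chromosome 17, 45555716 to 45563169) showed the opposite order of the sets in the NAc, with 0.208, 0.250, 0.0858 and 0.205 FPKM in saline I and 0.394, 0.418, 0.639 and 0.428 in saline II. In the PFCx it varied with the replicate number, and the mean over all libraries was 1.00 FPKM in set I and 0.583 in set II. In set I the 4 libraries numbered 4, one per treatment, were at 1.63 FPKM for saline, 1.90 for haloperidol, 1.94 for risperidone and 1.61 for methamphetamine, and those numbered 3 were at 0.315, 0.462, 0.723 and 0.613 in the same order. The means by number in set I were 1.09, 0.619, 0.528 and 1.77 for numbers 1 to 4, and in set II 1.02, 0.439, 0.426 and 0.449. The largest PFCx difference of Nfkbie from pooled saline was 0.36 after risperidone (limma adjusted p = 0.445, and 0.964 against own saline). What a replicate number stands for is not given in the sources used here.

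**Figure D3:**
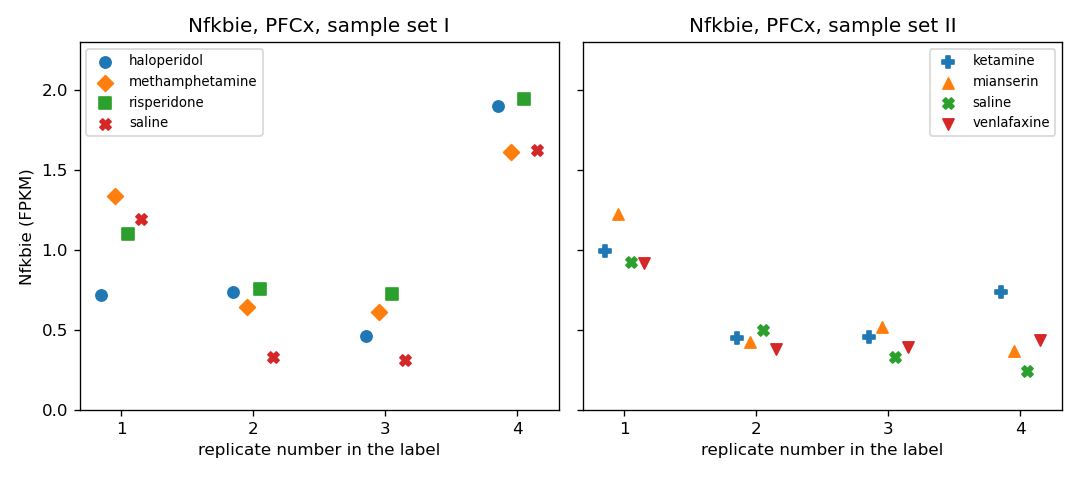
Nfkbie FPKM in the PFCx (vertical axis) by replicate number, with 1 point per library and the sample sets apart. In set I all 4 libraries numbered 4 lie at or above 1.61 FPKM, and in set II all 4 numbered 1 lie at or above 0.920.

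Nfkbiz (IkappaB-zeta, a nuclear and inducible member, chromosome 16, 55811375 to 55838899) stayed between 0.493 and 1.40 FPKM. The limma F test gave it an adjusted p of 0.418 (NAc) and 0.600 (PFCx). The group means ran from 0.756 ± 0.203 (SD, n = 4) after risperidone to 1.03 ± 0.0649 after ketamine in the NAc, beside 0.843 ± 0.129 (n = 8) after saline, and all drug groups overlapped saline.

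Of the subunits, Rela (p65, the main transactivating subunit, chromosome 19, 5637483 to 5648130) was the member other than Nfkbia with the lowest PFCx F test p (limma adjusted p = 0.133). Its PFCx levels were 2.03, 2.37, 2.02 and 2.76 FPKM after haloperidol and 2.11, 2.21, 2.16 and 2.30 after risperidone, against 1.78, 1.95, 1.74 and 1.62 in saline I. Both drugs lay fully above saline I but not above saline II, where replicate 1 was at 2.33 and the others at 1.24 to 1.53 FPKM. The differences from pooled saline were 0.29 (adjusted p = 0.145) and 0.25 (adjusted p = 0.173), and from own saline 0.24 (adjusted p = 0.795) and 0.20 (adjusted p = 0.806). In the NAc the means for the same drugs were 2.21 ± 0.242 and 2.54 ± 0.317, beside 2.34 ± 0.227 after saline.

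Rel (c-Rel, chromosome 11, 23736847 to 23770970) was called by the F test in the NAc (limma adjusted p = 0.0360), as were 36.9% of all genes there, and not against own saline (adjusted p = 0.760). Its mianserin libraries were at 0.497, 0.594, 0.670 and 0.559 FPKM, above saline II (0.448, 0.422, 0.461 and 0.461 FPKM) but overlapping saline I, which reached 0.516. The difference was 0.16 from pooled saline (SE 0.046, adjusted p = 0.065) and 0.13 from own saline (adjusted p = 0.514). In the PFCx, Rel was at 0.600 ± 0.0918 after mianserin and 0.513 ± 0.0743 after saline.

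Nfkb1 (p105, processed to p50, chromosome 3, 135584655 to 135691547) had the highest summed FPKM of the members after saline and ranged from 2.24 to 3.79 FPKM over all 64 libraries. Transcripts annotated as retaining an intron held 24.3%, 15.4%, 14.8% and 12.2% of its NAc FPKM, and the coding transcripts 7.81%, 4.46% and 2.78%. The group means of Nfkb1 ran from 2.98 to 3.59 in the NAc and from 2.90 to 3.43 in the PFCx, with all drug groups overlapping saline. Nfkb2 (p100, processed to p52, chromosome 19, 46304737 to 46312090) was the least abundant, from 0.0772 to 0.527 FPKM. Relb (chromosome 7, 19606217 to 19629438), the partner of p52 in the alternative pathway, was at 0.722, 0.594, 0.609 and 1.02 FPKM after ketamine in the PFCx and at 1.36, 1.03, 0.918 and 1.25 in saline II. That difference from own saline (-0.30, limma adjusted p = 0.273) had the lowest own-set adjusted p among the other members, and the groups overlapped.

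Tnfaip3 (A20, chromosome 10, 19000910 to 19015657) was called after no drug. In the PFCx the venlafaxine (1.42, 1.35, 1.01 and 1.04 FPKM) and ketamine libraries (1.43, 1.38, 0.821 and 0.720 FPKM) were fully below saline II (1.49, 1.65, 1.55 and 1.61 FPKM). Saline I spanned 1.09 to 1.94 FPKM, so neither group was separated from pooled saline (-0.23, limma adjusted p = 0.776, and -0.32, adjusted p = 0.571). In the NAc, 3 risperidone libraries were at 0.562, 0.637 and 0.664 FPKM and replicate 2 at 1.24, beside 1.03 ± 0.322 (SD, n = 8) after saline.

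**Figure D4:**
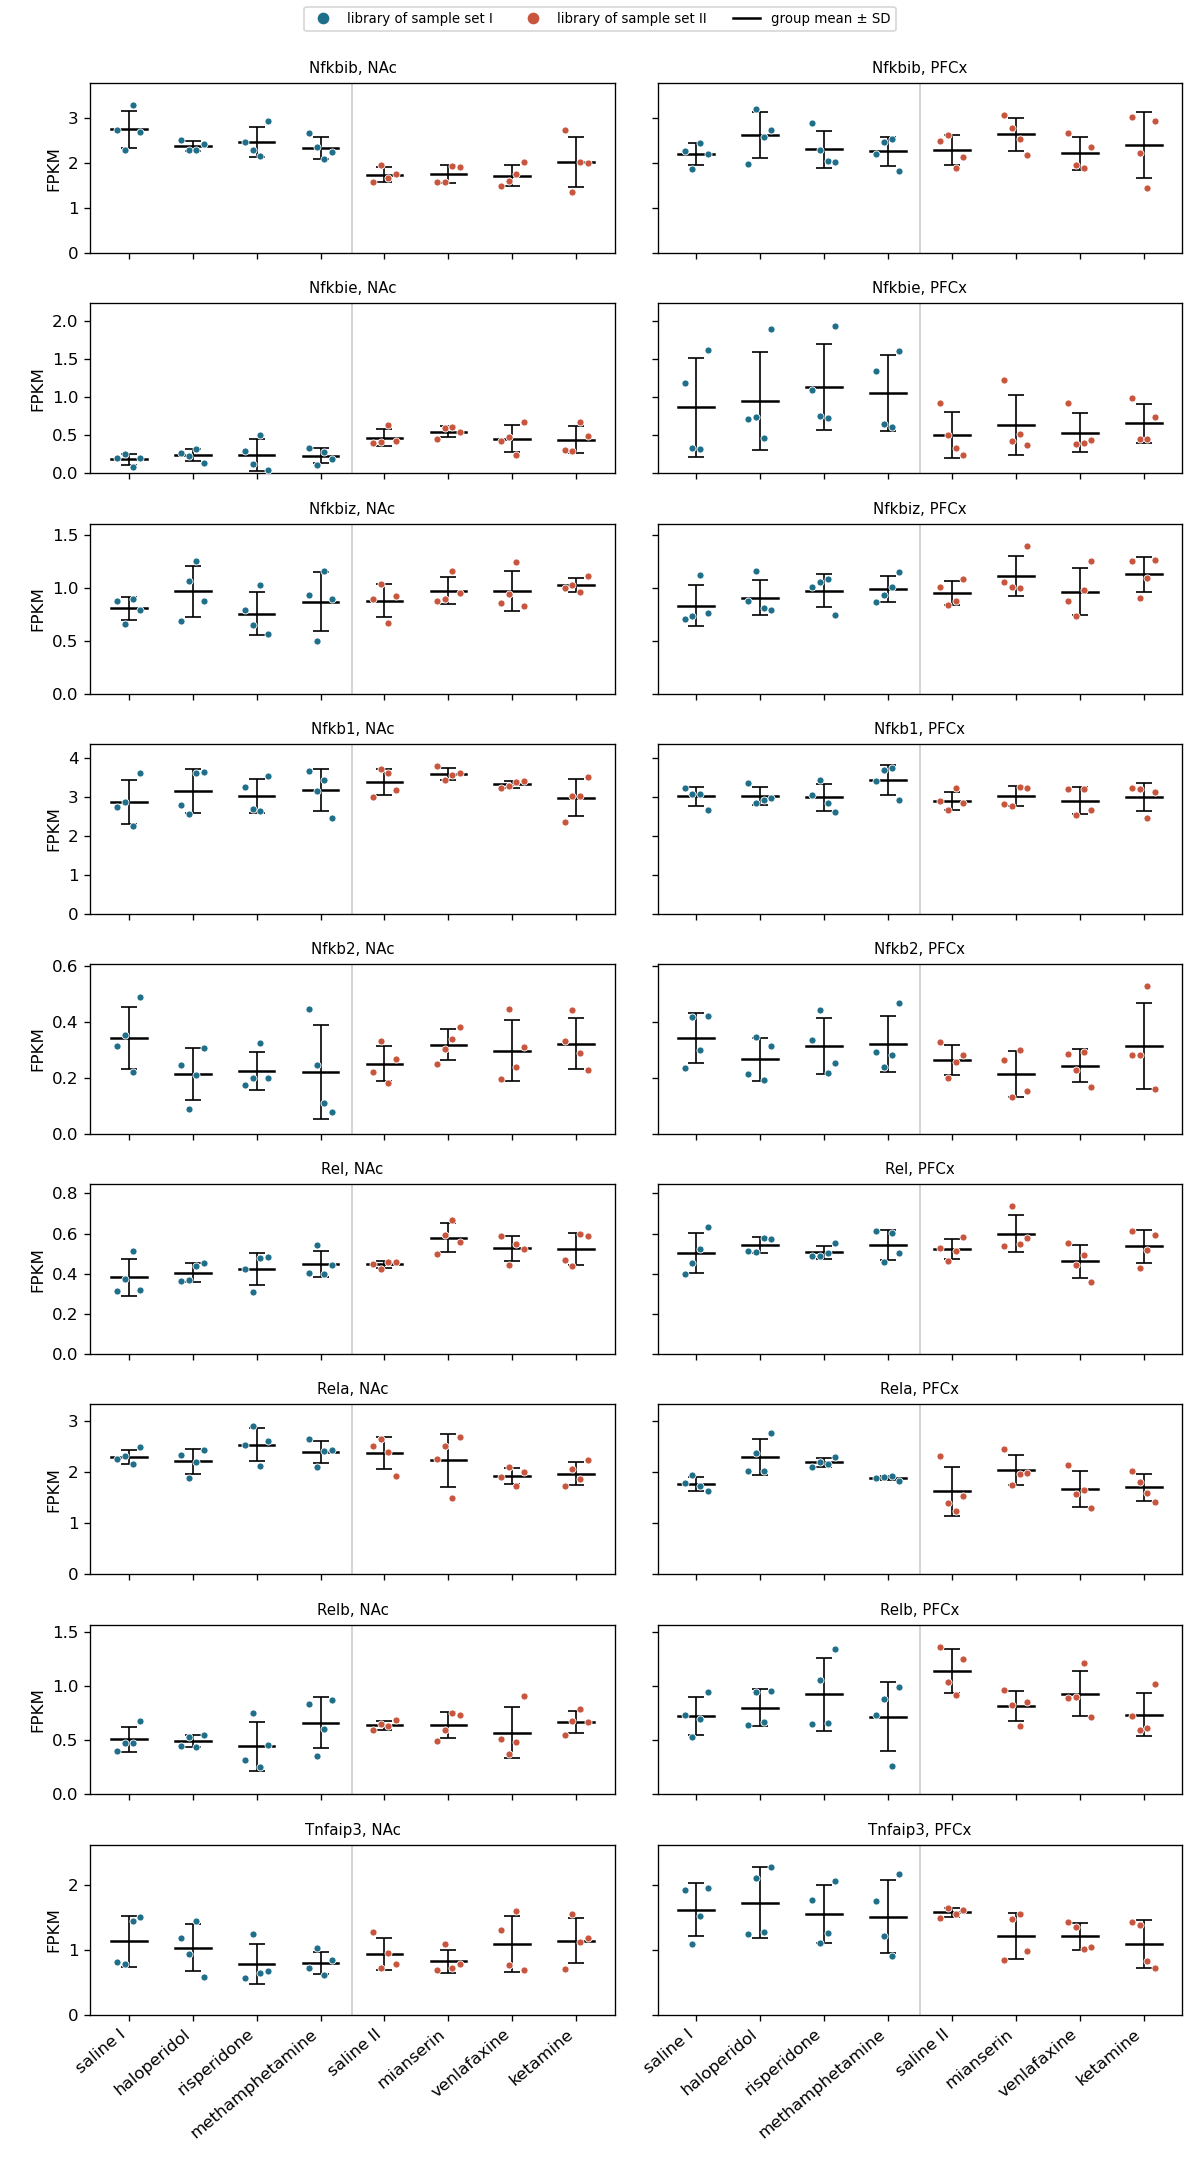
FPKM of the 9 other members in each of the 64 libraries (points, coloured by sample set), NAc left and PFCx right, with group means and SD. All drug groups overlap the pooled saline libraries of their tissue, and in the NAc Nfkbib and Nfkbie differ between saline I (2.76 and 0.187 FPKM on average) and saline II (1.75 and 0.470).

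Nfkbia, Nfkbie, Rel and Rela were each listed with 1 transcript, so their gene values are the values of that transcript. Nfkbia-201 is protein coding, with 6 exons and 1577 bases. For the others, the leading transcript of Nfkbib made up 89.5% of the gene's FPKM in the NAc and 87.1% in the PFCx, that of Nfkbiz 46.3% and 49.8%, and the leading NAc transcript of Tnfaip3 29.2% and 22.0%. The Nfkb1 FPKM was spread over 10 transcripts. Its leading transcript, annotated as retaining an intron, held 24.3% and 21.1% of the gene's FPKM, the next, also intron-retaining, 15.4% and 16.2%, and the coding Nfkb1-201 4.46% and 3.46%. Of the 30 member transcripts tested, only Nfkbia-201 was called by the F test, in both tissues (limma adjusted p = 2.16e-06 and 6.82e-05), where 11.6% (NAc) and 1.12% (PFCx) of all transcripts were called.

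The list of other NF-kappaB pathway genes held 82 genes, all tested: 13 receptors and ligands, 25 adaptors and kinases, 19 ubiquitin ligases and negative regulators and 25 target genes. By the F test 25 of the 82 (30.5%) were called in the NAc, where 36.9% of all genes were, and 2 (2.44%) in the PFCx, where 3.34% were. Against own saline it called 3 (3.66%) in the NAc, Chuk, Bcl2l1 and Ier3, beside 1.63% of all genes. In the PFCx it then called 1 (1.22%), Gadd45b, beside 1.45%. Of the 984 pairs of gene, drug and tissue, 9 were higher and 3 lower than pooled saline in limma (1.22%, beside 0.75% of all gene and drug pairs), and 4 were higher and none lower than own saline (0.407%, beside 0.532%). The median difference of the list against pooled saline was -0.05 to 0.06 in the NAc, where that of all genes was -0.05 to 0.05, and -0.02 to 0.03 in the PFCx, where it was -0.03 to 0.00. For the members it was -0.05 to 0.08 and -0.02 to 0.05.

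Among the target genes, Gadd45b, a stress-inducible gene, rose in 5 of its 12 contrasts. In the PFCx it was at 3.03, 2.59, 2.23 and 2.36 FPKM after methamphetamine, 2.25, 2.04, 2.68 and 3.06 after risperidone and 1.88, 2.17, 2.03 and 2.77 after haloperidol, against 0.941 to 1.48 in saline I and 0.806 to 1.09 in saline II. All 12 drug libraries lay above all 8 saline libraries, by 0.76 (limma adjusted p = 0.00232), 0.74 (adjusted p = 0.00278) and 0.61 (adjusted p = 0.0385), of which the methamphetamine call alone held against own saline (0.67, adjusted p = 0.0480). In the NAc it rose after haloperidol (2.80, 2.64, 2.87 and 2.35 FPKM, 0.71, adjusted p = 0.00267) and risperidone (0.52, adjusted p = 0.0390), calls not held against saline I, which reached 2.01 FPKM (adjusted p = 0.0997 and 0.470). After mianserin, where Nfkbia rose, Gadd45b was at 1.02 ± 0.172 FPKM in the NAc and 1.41 ± 0.105 in the PFCx (adjusted p = 0.486 and 0.651 against pooled saline). The PFCx mianserin libraries (1.43, 1.41, 1.27 and 1.53 FPKM) lay above all of saline II and overlapped saline I. Gadd45b was not called there against own saline either.

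Ier3, an early response gene that NF-kappaB can induce, rose in the NAc after haloperidol (2.96, 2.76, 2.67 and 4.73 FPKM, 0.69, limma adjusted p = 0.00132, and 0.0243 against own saline). It fell there after mianserin (0.480, 0.694, 1.31 and 0.707 FPKM, -0.56, adjusted p = 0.0113) and venlafaxine (1.06, 0.884, 0.838 and 0.980 FPKM, -0.43, adjusted p = 0.0495), calls that own saline did not keep (adjusted p = 0.112 and 0.720). NAc saline libraries of Ier3 lay between 1.08 and 1.89 FPKM. Mianserin thus had Nfkbia higher and Ier3 lower than pooled saline in the same NAc libraries. In the PFCx the mianserin libraries of Ier3 were at 1.95, 1.41, 1.01 and 1.20 FPKM. They overlapped saline I (1.32 to 1.82) and saline II (0.651 to 1.36), and Ier3 was not called there against either control.

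Among kinases and receptors, Chuk, the catalytic IkappaB kinase alpha, was lower after mianserin in the NAc (6.56, 6.29, 7.18 and 8.57 FPKM) than pooled saline (-0.36, limma adjusted p = 0.0324). The contrast of mianserin with own saline did not call Chuk (adjusted p = 0.0602), whereas the F test over the drugs against own saline did (adjusted p = 0.0238). Its saline II libraries lay between 9.10 and 10.5 FPKM, above all 4 mianserin libraries, and its saline I libraries between 8.19 and 10.3, overlapping them. The interleukin receptor Il1r1 was higher after risperidone in the PFCx (0.43, adjusted p = 0.0304, and 0.373 against own saline). The cytokine Il6 was called after mianserin and venlafaxine in the NAc (0.21 and 0.20, adjusted p = 0.0411 and 0.0488) and not against own saline (0.507 and 0.821). It was listed at 0 in 13 of the 16 NAc set I libraries and in none of set II. Tnf, Il1b, Cxcl10 and Cxcl1 were likewise listed at 0 in 11, 11, 9 and 7 of those 16 libraries and in none of set II. Own saline added 2 calls, Ccnd1 after ketamine in the NAc (0.52, adjusted p = 0.0445) and Btrc, the ubiquitin ligase subunit that recognises phosphorylated IkappaB and was listed with the adaptors and kinases, after mianserin in the PFCx (0.24, adjusted p = 0.0314). The ketamine libraries of Ccnd1 (3.72 to 5.34 FPKM) overlapped saline II, which reached 3.82. The mianserin libraries of Btrc (8.40 to 9.51 FPKM) lay above saline II but overlapped saline I, which reached 8.91. The limma F test against own saline called neither (adjusted p = 0.123 for Ccnd1 in the NAc and 0.281 for Btrc in the PFCx). None of the 19 genes listed as ubiquitin ligases and negative regulators was called in a single drug contrast.

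Across the 64 libraries, after the mean of each tissue and set was subtracted, Nfkbia did not follow the other members. Pearson's r of log2(FPKM + 1) with Nfkbia ran from -0.213 for Tnfaip3 to 0.358 for Rela, a description over libraries that share treatment groups. Of 14501 genes with a mean of at least 1 FPKM in both tissues, the 10 most like Nfkbia were Ddit4 (r = 0.865), Klf9 (0.837), Sgk1 (0.831), Pim3 (0.829), Klf15 (0.818), Txnip (0.784), Ucp2 (0.776), Rasd1 (0.766), H3f3b (0.758) and Aff1 (0.753), and the 11th was at 0.740. By Spearman's rho 9 of these 10 were again among the first 10, with Txnip 27th.

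The sizes of change in these genes differed. After mianserin the mean was 3.58 times own saline for Txnip in the NAc and 3.23 times in the PFCx, 3.21 and 2.37 times for Sgk1, 2.09 and 3.09 times for Ddit4, and 1.30 and 1.31 times for Klf9, beside 2.32 and 2.44 times for Nfkbia. After risperidone Rasd1 was 2.99 and 2.63 times own saline and Ucp2 1.96 and 2.48 times, beside 2.12 and 2.23 times for Nfkbia. After venlafaxine the 10 genes were between 0.939 and 1.41 times own saline, and Nfkbia 1.14 and 1.20 times.

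**Figure D5:**
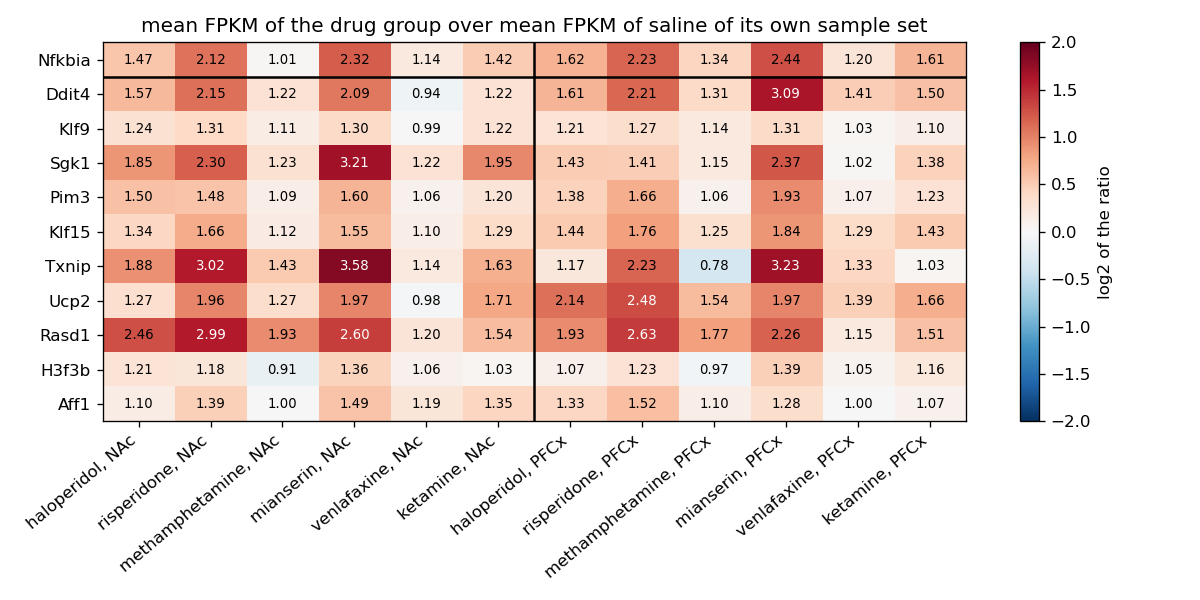
Ratio of the drug mean to the own saline mean (numbers, coloured on a log2 scale) for Nfkbia and the 10 genes most like it, by drug and tissue. For every gene in each tissue the highest ratio is after mianserin or risperidone, up to 3.58 for Txnip, and the venlafaxine columns lie between 0.939 and 1.41. The 10 genes were chosen by likeness to Nfkbia in these same libraries, so a drug order like that of Nfkbia follows partly from the choice.

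These are bulk samples, in which more cells of a type and more RNA per cell cannot be told apart. The summed microglia markers were at 0.910 to 1.04 times own saline in the NAc and 0.950 to 1.16 times in the PFCx over the 6 drugs, and the endothelial and mural markers at 0.841 to 0.986 and 0.913 to 1.07 times. After risperidone and mianserin, where Nfkbia rose most, the microglia markers were at 0.992 and 1.04 times own saline in the NAc and 1.12 and 0.950 times in the PFCx, and the endothelial and mural markers at 0.841, 0.965, 0.930 and 0.944 times. After the same drugs the PFCx oligodendrocyte markers were at 0.904 and 1.21 times own saline, and the striatal neuron markers, low in that tissue, at 1.44 and 0.662 times. Single high libraries weighed on both striatal ratios. The highest PFCx risperidone sum was 57.4 FPKM (median 22.5), beside 29.5 in saline I (median 18.2). The highest PFCx saline II sum was 61.9 FPKM (median 19.1), and the mianserin sums lay between 18.3 and 21.1 (median 18.8). The blood markers were lowest after mianserin, at 0.720 times in the NAc and 0.810 times in the PFCx. In the NAc ketamine libraries the cortical projection neuron markers were at 1.79 and the oligodendrocyte markers at 1.26 times own saline, and the part of these marker differences in the values of Nfkbia was not tested.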

How the data were processed

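Per the labels and the study's methods, ribo-depleted RNA was sequenced as single-end Ion Torrent reads. The authors aligned the reads to mm10 with TopHat2 2.0.1 and then Tmap, and quantified them against Ensembl transcripts with Cufflinks 2.2.1. The deposited tables hold FPKM per transcript, already scaled to depth by Cufflinks, and mean coverage per transcript, from which the aligned bases per library were estimated for transcripts of at least 2000 bases and 5 FPKM. Their confidence columns were not used. Counts are not given, so no interval from counting error could be made.

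FPKM was summed per gene, filtered at a mean of at least 0.1 in either tissue, transformed as log2(FPKM + 1) and fitted with limma 3.58.1 (R 4.3.3) over 37034 genes or 86331 transcripts, with Benjamini-Hochberg adjustment. Single genes were also tested by exact permutation over libraries (Python 3.11.15, scipy 1.17.1). The fits were tested on simulated data with independent noise around the mean of each gene, which held no effect of sample set or replicate number. Pathway genes were named by the lowest F test p, at most 15 of them, Il1r1, Ccnd1, Btrc, Ikbkb and Birc3 being named after their values were seen. Promoters and transcript types came from RefSeq (GRCm38.p6) and GENCODE. No library pair held identical values. The members, lists and comparisons were chosen with earlier results of these data known. Which saline set belongs to which drugs is not stated and was taken from how many transcripts each NAc library lists above 0.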

Additional observations from a re-analysis of the deposited data

Results flagged for a closer look

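In 6 of 140 groups of member, tissue and treatment, 1 library lay apart from the rest of its group by Dixon's criterion, where chance alone gives about 7. For Nfkbia these were NAc saline I replicate 4, at 3.27 FPKM with the next of the 8 saline libraries at 2.42, and PFCx mianserin replicate 2, at 4.00 FPKM with the next at 5.39. In the PFCx, Nfkbie was at 0.920 FPKM in venlafaxine replicate 1 (next 0.441), Nfkbiz at 1.40 in mianserin replicate 4 (next 1.05) and Nfkb1 at 2.47 in ketamine replicate 3 (next 3.11). In the NAc, Tnfaip3 was at 1.24 FPKM in risperidone replicate 2 (next 0.664).

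By limma over the 6 differences of differences, the drug effect differed between the tissues for 9 of the 82 pathway genes, beside 12.9% of all genes, 6 of them among the 15 with the lowest F test p, which are given here. The other 3 were Ikbkb, Birc3 and Ccnd1. Ier3 had an adjusted p of 0.00219, and 0.00856 against own saline, with NAc haloperidol libraries at 3.28 ± 0.972 FPKM (SD, n = 4) and PFCx ones at 1.60 ± 0.643. The adjusted p was 3.16e-04 for Il6, 0.00216 for Cxcl1, 0.0229 for Tnf, 0.00380 for Ikbke and 0.0178 for Cxcl10. Against own saline it was 0.826 or higher for these 5, of which Il6, Cxcl1, Tnf and Cxcl10 were listed at 0 in 7 to 13 of the 16 NAc set I libraries.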

How the results depend on the processing

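Of 1855 values under alternatives, 1668 kept their side of the threshold or, as counts, stayed within 1.5 times the reported count. Of the rest, 131 lost a call, 18 gained one, 37 counts moved further and 1 called difference reversed. A change of sign in a difference called under neither setting was counted as kept, as for Nfkbia after methamphetamine in the NAc (lowest -0.22). Nfkbia after mianserin was called under every alternative in both tissues, after risperidone under every one but 1, and its call after haloperidol was lost under 3 of 12 in each tissue, leave-one-out apart.

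The main counts were 2 member genes, 3 member and drug pairs and 1 member transcript in the NAc, 1, 3 and 1 in the PFCx, 0 member genes differing between tissues and 12 pathway pairs. Own saline gave 1 NAc gene and 4 pathway pairs. A pseudocount of 0.1 gave 2 NAc transcripts and 1 tissue difference, and no filter 5 NAc transcripts. A mean of at least 1, and a mean-variance trend, each gave 1 NAc gene and 2 transcripts, and no moderation 3 transcripts. Scaling to the 75th percentile of values above 0 gave 10 NAc genes, 12 pairs, 6 transcripts, 9 tissue differences and 89 pathway pairs. That scaling moved the NAc median gene by -0.37 to -0.36 in set I and 0.37 to 0.39 in set II, and put Nfkbia at -0.22 after methamphetamine, 0.09 after haloperidol (limma adjusted p = 0.523) and 0.49 after risperidone (adjusted p = 0.0634), and reversed Chuk after mianserin (0.11, adjusted p = 0.656). The 75th percentile over genes with a mean of at least 1, chosen after seeing the data, gave 3 NAc transcripts.

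With the replicate block there was 1 tissue difference and 11 pathway pairs, and with own saline and the replicate block 1 NAc gene and 7 pathway pairs. Libraries with the same number correlated in their deviations by 0.233 and 0.126 in NAc sets I and II and by 0.344 and 0.165 in the PFCx on average, with a pair under 0.1 in all but NAc set I, and 16, 12, 16 and 8 of 16 libraries correlated best with their own number.

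Without single libraries there were 1 to 3 NAc genes, 3 to 4 pairs and 1 to 4 transcripts, 1 to 1 PFCx genes, 2 to 3 pairs and 1 to 1 transcripts, 0 to 0 tissue differences and 8 to 17 pathway pairs. Of the pathway calls against pooled saline, Ier3 after venlafaxine was lost in 24 of the 32 NAc fits without 1 library. Il6 after venlafaxine was lost in 23, Gadd45b after risperidone in 9, Il6 after mianserin in 7 and Chuk after mianserin in 4. In the PFCx, Gadd45b after haloperidol was lost in 9 of 32 such fits and Il1r1 after risperidone in 5. The other pathway calls were kept in all of them. Rel after mianserin in the NAc, not called as reported, was called without saline II replicate 1, 3 or 4 (adjusted p = 0.0492, 0.0437 and 0.0467), with no filter (0.0398), with no moderation (0.0412) and under both scalings (0.0110 and 0.0469). The depth behind each FPKM is not given as counts, so low members such as Nfkb2 and Nfkbie carry an unknown counting error.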
